A study of Danio rerio with 9 samples.

Results

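The AP-1 and immediate early transcription factors were followed in Müller glia (MG) of the zebrafish retina. The members are the Fos genes *fosab*, *fosl1a* and *fosl2*, the Jun genes *jun*, *junba*, *junbb* and *jund*, and the stress and early response genes *atf3*, *egr1* and *batf*. They were chosen by name, with earlier results of these data known, and of the 10 symbols 9 could be followed, among 23707 gene IDs in the count table. *fosab* was found as FOS (ENSDARG00000031683), through its former name, and *fosl1a* as FOSL1 (ENSDARG00000015355), without its final letter. The others were *fosl2* (ENSDARG00000040623), *jun* (ENSDARG00000043531), *jund* (ENSDARG00000067850), *atf3* (ENSDARG00000007823) and *egr1* (ENSDARG00000037421). *junba* and *junbb* share the symbol JUNB in the names table. They are therefore called *junb*-I (ENSDARG00000074378) and *junb*-II (ENSDARG00000104773) here, and which of them is *junba* was not assigned. *batf* was not analysed here.

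RNA was measured in GFP+ cells sorted from *gfap:GFP* retinas, as 3 libraries in each of 3 groups. These were MG of injured *mych*-/- retinas at 2 days post injury (dpi), MG of injured Wt retinas at 2 dpi, and MG of Wt retinas with no injury. All 3 groups carry the *gfap:GFP* transgene, in which the *gfap* promoter drives GFP in MG and the progenitors derived from them. Adult fish of both sexes were used, retinas were injured by needle pokes, and preparations pooled the retinas of several fish. *mych*-/- fish carry a germline frameshift allele of the Myc family gene *mych* in every tissue. No *mych*-/- MG without injury were measured, so the genotype was compared only after injury. Nothing in the labels says which fish each library came from, so p-values measure the spread between libraries.

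AP-1 is a dimer of basic leucine zipper proteins. Jun proteins pair with each other or with a Fos protein, Fos proteins need a Jun partner, and the pair chosen sets how strongly a target gene is switched on. Immediate early genes are those whose transcription starts within minutes of a stimulus, without new protein being made, through kinases and factors such as Srf that are already present. In neurons, activity induces many of them. In zebrafish MG, AP-1 genes are known as part of the early response to retinal injury that comes before MG reprogramming and cell division. The cells were dissociated and sorted before RNA was taken, and levels in the intact retina were not measured. The part of this handling in the levels of any group, Wt uninjured MG included, was not tested.

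Library totals were 46835977 to 77133615 counts, and no member had fewer than 2122 counts in any library. CPM values are counts scaled to the size of the library, and on the log2 scale a difference of 1 is a 2-fold change. The 9 genes together took 0.516% to 1.06% of a library's counts. The frameshift need not lower the *mych* transcript, which stood at 145 to 197 CPM in *mych*-/- MG at 2 dpi, 180 to 319 CPM in Wt MG at 2 dpi and 11.04 to 25.9 CPM in Wt uninjured MG. MG markers were abundant in every library, with summed levels of 12920 to 35200 CPM in *mych*-/- MG at 2 dpi, 14640 to 22970 CPM in Wt MG at 2 dpi and 10340 to 17200 CPM in Wt uninjured MG. Of the 8 MG markers tested, 3 were higher and 1 was lower in Wt MG at 2 dpi than in Wt uninjured MG. *apoeb* was the largest part of the sum at 2 dpi, with 7934 to 15810 CPM in Wt MG against 1979 to 4164 CPM in Wt uninjured MG. Markers of neurons were present too, and more so without injury. In each Wt uninjured library the summed cone markers exceeded the summed MG markers. Of the rod markers 10 of 12 tested were lower in Wt MG at 2 dpi than in Wt uninjured MG, with summed levels of 1077 to 3339 CPM against 14430 to 28610 CPM. The same held for 9 of 10 cone markers (9534 to 17920 CPM at 2 dpi against 31230 to 49460 CPM without injury). For bipolar cell markers it held for 10 of 10 (351 to 494 CPM against 1041 to 1906 CPM), and for amacrine cell markers for 8 of 9 (739 to 1755 CPM against 3867 to 4632 CPM). Markers of microglia and macrophages were scarce, at 72.7 to 100.3 CPM in Wt MG at 2 dpi against 27.8 to 81.5 CPM without injury, where 7 of 18 were higher and 1 was lower. Of these, *c1qa* had no counts in any Wt uninjured library. Between genotypes at 2 dpi, 0 markers of these lists were called. The part of these other cells in the results below was not tested, and in bulk samples fewer cells of a type and less RNA per cell cannot be told apart.

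The first comparison asked which of the factors respond to injury in Wt MG. Both Fos-like genes were higher at 2 dpi. *fosl1a* had 3.91 times its uninjured level and *fosl2* 2.08 times, and *atf3* was 2.29 times as high. *egr1* was lower, at 0.566 of its uninjured level. *fosab* itself, *jun*, *jund* and both *junb* genes did not pass the test in either direction.

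*fosl1a* encodes Fra-1, a Fos protein that lacks the strong activation domain of Fos and takes part in cell migration and tissue repair. Its level was 564, 895 and 936 CPM in the Wt 2 dpi libraries, against 198, 78.2 and 337 CPM in the Wt uninjured libraries. All injured libraries thus exceeded the uninjured ones, although the uninjured ones spread over 4.31-fold. The log2 fold change was 1.97 (edgeR, SE 0.43, adjusted p 0.00358).

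*fosl2* encodes Fra-2, the closest relative of Fra-1. It had 212, 211 and 207 CPM in Wt MG at 2 dpi, against 110, 79.5 and 114 CPM in Wt uninjured MG. The injured libraries lay within 1.03-fold of each other and well above the uninjured ones. Of the 9 genes *fosl2* had the lowest standard error, with a log2 fold change of 1.06 (edgeR, SE 0.18, adjusted p 0.000688).

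*fosab* encodes the Fos protein, the classical partner of Jun. It reached 1432, 1986 and 2948 CPM in Wt MG at 2 dpi, against 2571, 1742 and 3146 CPM in Wt uninjured MG. These ranges overlap almost fully. The log2 fold change was -0.23 (edgeR, SE 0.33, adjusted p 0.629), with a 95% interval of -0.95 to 0.49.

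The Jun genes, which every AP-1 dimer of this kind contains, were less uniform. *jun* had 1052, 1182 and 1854 CPM in Wt MG at 2 dpi, against 765, 600.4 and 1091 CPM in Wt uninjured MG. Only uninjured replicate 3 reached into the injured range, and the log2 fold change of 0.73 missed the threshold (edgeR, SE 0.28, adjusted p 0.0563). *junb*-I had 823, 1068 and 1459 CPM at 2 dpi, against 811, 375 and 787 CPM without injury. Its groups do not overlap, though their nearest libraries are close, and its log2 fold change of 0.76 was not called either (edgeR, SE 0.31, adjusted p 0.0702).

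JunB and JunD are known in mammals as weaker activators than Jun that can restrain cell division. *junb*-II had 1059, 1480 and 1786 CPM in Wt MG at 2 dpi, against 1272, 913 and 1146 CPM in Wt uninjured MG. *jund* had 124, 159 and 144 CPM at 2 dpi, against 124, 113 and 262 CPM without injury. In both genes the groups overlapped, with log2 fold changes of 0.38 and -0.23 (edgeR, SE 0.25 and 0.32, adjusted p 0.249 and 0.619). The negative value of *jund* came from 1 library, because without Wt uninjured replicate 3 it was 0.27.

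*atf3* encodes a leucine zipper factor that pairs with Jun proteins and is induced by many kinds of stress, among them nerve injury. Its levels were 227, 254 and 402 CPM in Wt MG at 2 dpi, against 105, 50.5 and 231 CPM in Wt uninjured MG. Uninjured replicate 3 lay just above injured replicate 1, and the other libraries were separated. The log2 fold change was 1.19 (edgeR, SE 0.44, adjusted p 0.0453). This call was a marginal one. It held without Wt uninjured replicate 3 (1.91, adjusted p 0.00157) and without Wt 2 dpi replicate 1 (1.35, adjusted p 0.0425), while leaving out any other single library gave 0.82 to 1.29 with an edgeR adjusted p of 0.0556 to 0.171.

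*egr1* encodes a zinc finger factor outside the AP-1 family that is induced through Srf. It had 1122, 1143 and 1140 CPM in Wt MG at 2 dpi, against 2080, 1801 and 2135 CPM in Wt uninjured MG. All injured libraries were low and within 1.02-fold of each other. The log2 fold change was -0.82 (edgeR, SE 0.21, adjusted p 0.00695). Most markers of photoreceptors, bipolar cells and amacrine cells listed above were lower at 2 dpi too. Of the 8 MG markers 1 was lower and 3 were higher. The part of neurons in the fall of *egr1* was not tested.

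**Figure D1:**
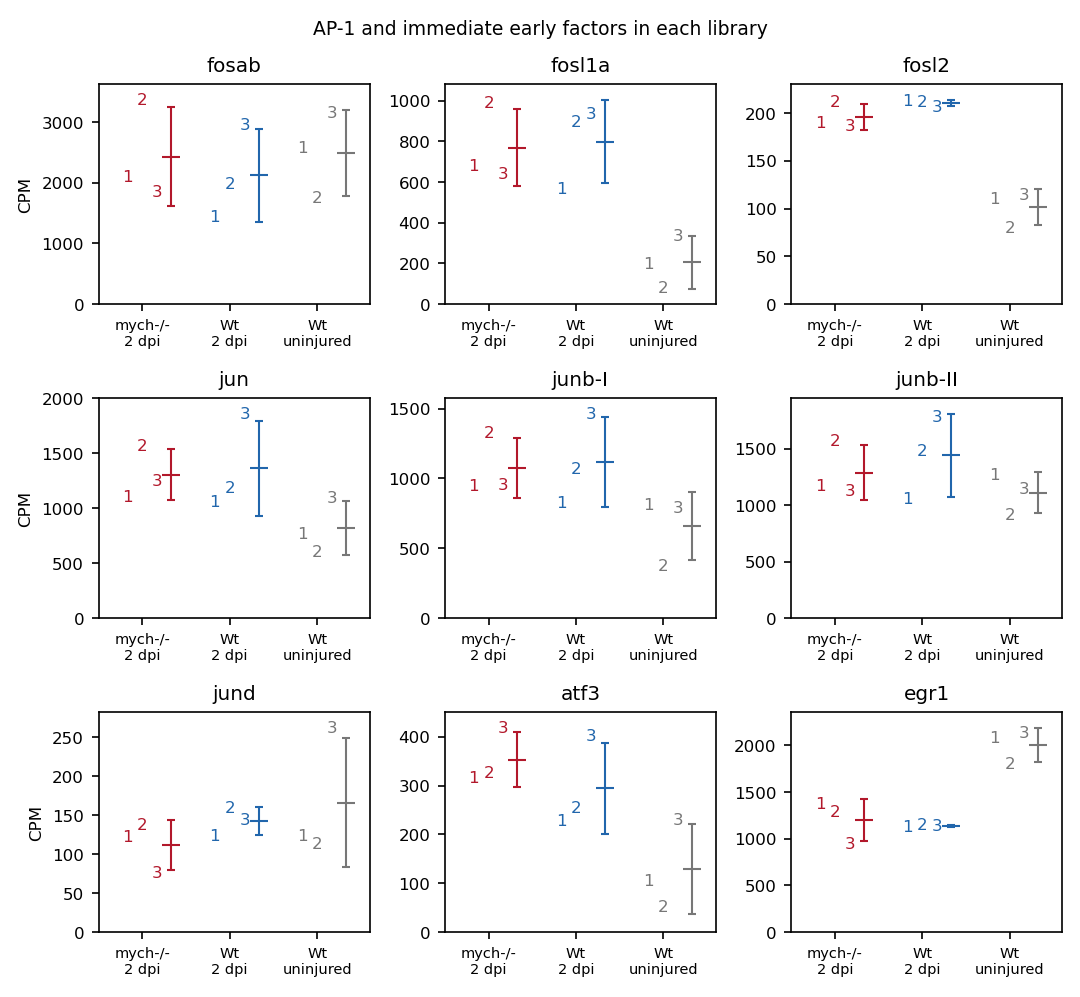
CPM (scaled by TMM) of each gene in each library, with a linear axis that starts at 0. Digits are the replicate numbers, and each bar beside them is the mean with its SD (n = 3). *fosl1a* and *fosl2* stand higher in both injured groups than in Wt uninjured MG and *egr1* stands lower, while *mych*-/- and Wt libraries at 2 dpi overlap for all 9 genes.

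In all, 4 of the 9 genes were called with injury, 3 higher and 1 lower. Called genes are those with an adjusted p of 0.05 or less and a change of more than 0.5 on the log2 scale. Of all 20484 genes tested, 22.3% were called higher and 19.8% lower, so that 3 of 9 and 1 of 9 stand near the share of genes in general. Without regard to the threshold, all Wt 2 dpi libraries exceeded all uninjured ones for 3 of the 9 genes, as it did for 28.7% of all genes. The median log2 fold change of the 9 genes was 0.73, beside -0.02 for all genes. These shares and this median are a description, because the members were chosen with earlier results of these data known. The calls of *fosl1a*, *fosl2* and *egr1* held with each library left out in turn, at log2 fold changes of 1.59 to 2.52, 0.91 to 1.15 and -0.89 to -0.76. Calls were gained for *jun* without Wt uninjured replicate 3 (0.99, edgeR adjusted p 0.0212) or without Wt 2 dpi replicate 1 (0.89, adjusted p 0.0354), and for *junb*-I without Wt 2 dpi replicate 1 (0.94, adjusted p 0.0396).

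The second comparison asked whether loss of *mych* alters these factors after injury. Of the 9 genes 0 were called in *mych*-/- against Wt MG at 2 dpi with edgeR, 0 had an unadjusted p under 0.05, and 0 were called with DESeq2. Over all genes tested, 19.4% had an unadjusted edgeR p under 0.05 and 1.69% were called. The share called moved with the libraries and the tool. The count was 347 genes with all libraries, 8 to 1026 with each library left out, the lowest without Wt 2 dpi replicate 2 and the highest without *mych*-/- replicate 2, and 1795 of 23378 genes with DESeq2. The libraries of both genotypes overlapped for each of the 9 genes, whereas 23.8% of all genes had no such overlap. The intervals of the differences are given with each gene.

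*fosl1a* had 677, 988 and 642 CPM in *mych*-/- MG, against 564, 895 and 936 CPM in Wt MG at 2 dpi. The libraries of both genotypes lie intermingled. The log2 fold change was -0.05, with a 95% interval of -0.97 to 0.86, so that sizeable changes in either direction lie inside it.

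*fosl2* was measured more tightly, at 190, 211 and 186 CPM in *mych*-/- MG against 212, 211 and 207 CPM in Wt MG at 2 dpi. The fold change was -0.10 on the log2 scale, and its interval of -0.50 to 0.29 was the narrowest of the 9. *egr1* had 1369, 1290 and 948 CPM in *mych*-/- MG, against 1122, 1143 and 1140 CPM in Wt MG at 2 dpi. Its *mych*-/- libraries lie on both sides of the Wt ones, with a log2 fold change of 0.08 and an interval of -0.36 to 0.53.

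*fosab* had 2090, 3359 and 1839 CPM in *mych*-/- MG, against 1432, 1986 and 2948 CPM in Wt MG at 2 dpi. *jun* had 1105, 1562 and 1247 CPM in *mych*-/- MG, against 1052, 1182 and 1854 CPM in Wt MG. Both genes varied more within each genotype than between them, with log2 fold changes of 0.20 and -0.06. Their 95% intervals were -0.53 to 0.92 for *fosab* and -0.68 to 0.56 for *jun*. *atf3* had 315, 325 and 418 CPM in *mych*-/- MG, against 227, 254 and 402 CPM in Wt MG, where the highest library of each genotype was replicate 3. Its log2 fold change was 0.26, with an interval of -0.68 to 1.20.

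Both *junb* genes overlapped between genotypes as well. *junb*-I had 946, 1324 and 955 CPM in *mych*-/- MG against 823, 1068 and 1459 CPM in Wt MG at 2 dpi. *junb*-II had 1171, 1567 and 1126 CPM in *mych*-/- MG against 1059, 1480 and 1786 CPM in Wt MG at 2 dpi. In each the highest library was Wt replicate 3, and the log2 fold changes were -0.06 and -0.16. The 95% intervals were -0.74 to 0.63 for *junb*-I and -0.70 to 0.38 for *junb*-II. The largest difference in size among the 9 was that of *jund*, at 122, 138 and 76.1 CPM in *mych*-/- MG against 124, 159 and 144 CPM in Wt MG. It amounted to -0.35 on the log2 scale, with an interval of -1.04 to 0.35.

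**Figure D2:**
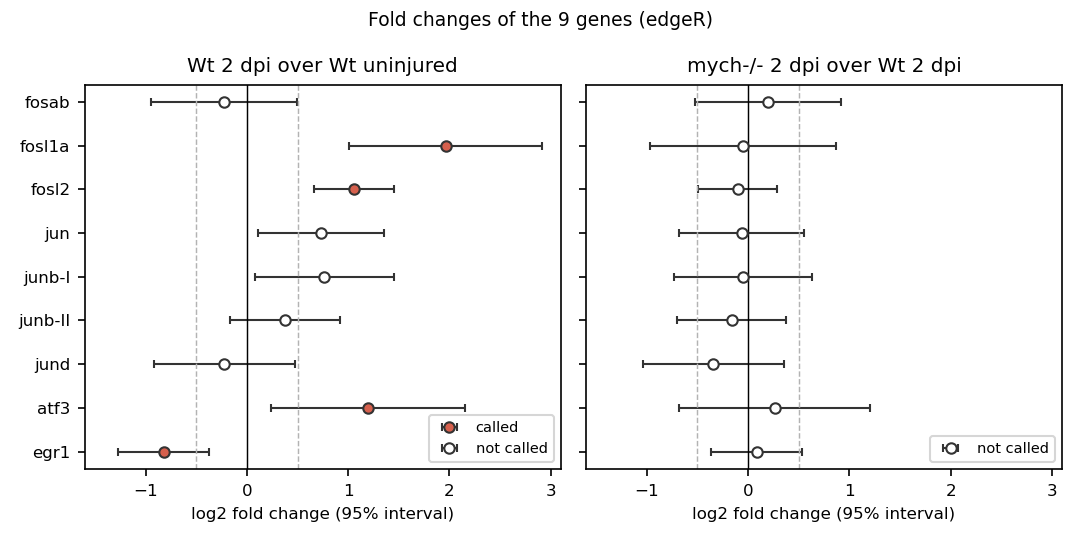
Log2 fold changes of the 9 genes with 95% intervals (edgeR), for Wt 2 dpi over Wt uninjured MG on the left and *mych*-/- over Wt MG at 2 dpi on the right. Filled points are called and dashed lines mark 0.5 in either direction. With injury 4 points are filled, while each interval of the genotype comparison spans 0.

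Injured *mych*-/- MG were then set against Wt uninjured MG. This comparison shares its uninjured libraries with the first and its mutant libraries with the second, so its values are given beside theirs and not as a further test of them. The same 4 genes were called, 3 higher and 1 lower, where 16.3% of all genes were called higher and 9.53% lower. *fosl1a* differed by 1.91 on the log2 scale (edgeR, SE 0.43, adjusted p 0.00723), beside 1.97 for Wt MG. For *fosl2* the value was 0.95 (edgeR, SE 0.18, adjusted p 0.0024), beside 1.06 for Wt MG.

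The stress gene *atf3* differed by 1.46 on the log2 scale (edgeR, SE 0.44, adjusted p 0.0306), beside 1.19 for Wt MG. Its *mych*-/- libraries, at 315 to 418 CPM, all lay above the Wt uninjured ones, at 50.5 to 231 CPM. *egr1* differed by -0.74 (edgeR, SE 0.21, adjusted p 0.0203), beside -0.82 for Wt MG. The call of *atf3* was lost without Wt uninjured replicate 1 (adjusted p 0.088) or without any one of the *mych*-/- libraries (0.0599, 0.0587 and 0.0712 without replicate 1, 2 and 3). That of *egr1* was lost without Wt uninjured replicate 1 (0.0712), Wt uninjured replicate 3 (0.0624) or *mych*-/- replicate 3 (0.0919). The count of called genes was thus 2 without Wt uninjured replicate 1 or *mych*-/- replicate 3, beside 4 with all libraries. Of the genes not called, *jun* stood at 0.67 and *junb*-I at 0.71 (edgeR adjusted p 0.107 and 0.123), and *jund* at -0.57 (0.221).

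The order of the 3 groups by mean level therefore differed between genes. *fosl1a*, *fosl2*, *jun* and both *junb* genes had their highest mean in Wt MG at 2 dpi, then *mych*-/- MG at 2 dpi, then Wt uninjured MG, and *atf3* had *mych*-/- MG first. *fosab*, *jund* and *egr1* had their highest mean in Wt uninjured MG. For none of the genes was a difference called between *mych*-/- and Wt MG at 2 dpi. For *fosab*, *jun*, *jund* and both *junb* genes no difference was called between any pair of groups.

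Most of the 9 genes shared their lowest or highest replicate within a group, with exceptions. Wt uninjured replicate 2 was the lowest of its group for 9 of 9 genes. It took this place for 33.0% of the tested genes with counts in all 9 libraries. Wt 2 dpi replicate 1 was the lowest of its group for 8 of 9 genes, a place it took for 32.6% of those tested genes. In markers of the retinal pigment epithelium this library stood apart, with a sum of 352 CPM beside 71.8 and 23.7 CPM in the other Wt 2 dpi libraries. Those 8 genes include *egr1*, whose Wt 2 dpi libraries lay within 1.02-fold, and *fosl2* was highest in that library. *mych*-/- replicate 2 was the highest of its group for 7 of 9, and the share of all genes highest there was not computed. In that group *atf3* was highest in replicate 3 and *egr1* in replicate 1. The lowest place there was split between replicate 1 (3 genes) and replicate 3 (6 genes). The spread among uninjured libraries was widest for *atf3* and *fosl1a*, at 4.57-fold and 4.31-fold, and least for *egr1*, at 1.19-fold. The median spread of the 9 genes there was 1.82-fold, beside 1.48-fold over the tested genes with counts in all 9 libraries. What sets these shared differences was not tested.

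*fosl1a*, *fosl2*, *jun*, *atf3* and *egr1* were therefore also expressed as ratios to *fosab* in the same library. This measure was chosen after the values had been seen, and only its change between libraries can be read, since gene lengths were not used. Ratios of both *junb* genes and of *jund* were not computed. Nor was the share of all genes whose ratio to *fosab* separates the groups, so a separation is not shown to be particular to these genes. For *fosl1a* the ratio was 0.394, 0.451 and 0.318 in Wt MG at 2 dpi, against 0.0771, 0.0449 and 0.107 in Wt uninjured MG. The ratio was thus higher in every injured library, by 2.42 on the log2 scale on average. For *jun* it was 0.734, 0.595 and 0.629 at 2 dpi, against 0.298, 0.345 and 0.347 without injury, a difference of 0.98 with no overlap.

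*atf3* behaved likewise, with ratios to *fosab* of 0.159, 0.128 and 0.136 in Wt MG at 2 dpi, against 0.0409, 0.0290 and 0.0733 in Wt uninjured MG. The difference was 1.67 on the log2 scale. *fosl2* had ratios of 0.148, 0.106 and 0.0701 at 2 dpi, against 0.0426, 0.0457 and 0.0363 without injury. Both *atf3* and *jun*, whose own libraries overlapped between these groups, did not overlap as ratios. For each of these 4 ratios a two-sided exact permutation test gave p = 0.1, the smallest that 3 libraries against 3 can give (0.125 adjusted over the 5 ratios computed). The ratio of *egr1* to *fosab* overlapped (0.783, 0.575 and 0.387 at 2 dpi against 0.809, 1.03 and 0.679 without injury, exact permutation p = 0.2, adjusted 0.2). Between genotypes at 2 dpi the ratio of *fosl1a* was 0.324, 0.294 and 0.349 in *mych*-/- MG against 0.394, 0.451 and 0.318 in Wt MG, with a difference of -0.25 (exact permutation p = 0.3, adjusted 0.667).

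**Figure D3:**
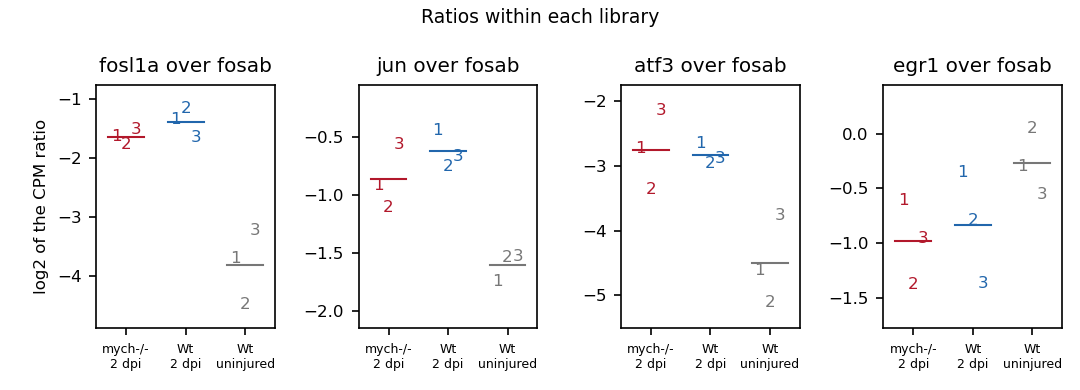
Log2 of the ratio of each gene's CPM to that of *fosab* in the same library, with replicate numbers as digits and lines at the group means. The ratios of *fosl1a*, *jun* and *atf3* stand higher in both injured groups than in Wt uninjured MG with no overlap, and that of *egr1* overlaps between Wt MG at 2 dpi and Wt uninjured MG.

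As a description of which transcripts move with these factors, Pearson's r of log2 CPM was ranked over the 9 libraries for the 10320 genes with a symbol and at least 10 CPM on average. The points share the difference between injured and uninjured groups, and r was not taken within groups. Closest to *fosl1a* were *NFE2L1*, a leucine zipper factor that controls proteasome genes (r = 0.996), *ACAD11*, an acyl-CoA dehydrogenase (0.994), and *dna2*, a nuclease and helicase of DNA replication and repair (0.994). Among the other members, *fosl2* (0.959) ranked 82 and *atf3* (0.940) ranked 190 in likeness to *fosl1a*. *junb*-I (0.924) ranked 324 and *jun* (0.913) ranked 443, so that many other genes followed *fosl1a* more closely. *junb*-II stood at 0.706 (rank 3004), while *fosab* (0.232) and *jund* (0.047) hardly followed it. *egr1* ran the other way (-0.720, rank 7867 of 10320).

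Closest to *atf3* were *plin3*, a lipid droplet protein (r = 0.951), *irf1b*, an interferon regulatory factor (0.950), and *RHOV* (0.947), and *fosl1a* was the fifth of all genes ranked. Closest to *egr1* were *ELMO1*, an activator of Rac signalling (0.979), *SH3BGRL2* (0.973) and *SOX10*, a factor of neural crest and glial lineages (0.963). All 3 had lower means at 2 dpi in both genotypes than in Wt uninjured MG, as *egr1* did.

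Some of the members lie beside other AP-1 genes. In the RefSeq table of the zebrafish genome (another build, so that no positions are given), *fosab* is followed by *batf* and *jdp2b* on chromosome 20 with no protein-coding gene between. *atf3* has *batf3*, a partner of Jun proteins in immune cells of mammals, as its direct neighbour on the same chromosome. *BATF3* was nearly silent, at 0.117, 0 and 0.252 CPM in *mych*-/- MG, 0, 0 and 0.188 CPM in Wt MG at 2 dpi and 0 in each Wt uninjured library, while *atf3* beside it had counts in every library. *fosaa* and *jdp2a* are direct neighbours on chromosome 17, where *fosl2* also lies.

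The rest of the AP-1 family was taken from a list of 8 further genes, 6 of which had enough counts to be tested. With injury 2 were higher and 1 was lower, with a median of 0.07 on the log2 scale. These shares of 33.3% and 16.7% of the 6 genes stand beside 22.3% and 19.8% of all genes. *fosl1b*, the second zebrafish gene for Fra-1, had 8.55, 10.5 and 21.5 CPM in Wt MG at 2 dpi and no counts in any Wt uninjured library. It was therefore at least 233-fold higher (floor of 3 counts per library), and stood at 9.68, 11.5 and 9.22 CPM in *mych*-/- MG at 2 dpi. *fosl1b* and *fosl1a* thus were both higher with injury, the one from a floor without counts and the other from a measurable level.

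*batf2*, a leucine zipper factor that pairs with Jun proteins, had 11.4, 31.4 and 50.8 CPM in Wt MG at 2 dpi, against 3.43, 0.0952 and 3.73 CPM in Wt uninjured MG (log2 fold change 3.67, SE 0.86, edgeR adjusted p 0.0051). It too was lowest in uninjured replicate 2. *fosaa*, the second zebrafish *fos* gene, went the other way, with 2.38, 2.91 and 2.74 CPM in Wt MG at 2 dpi against 15.6, 11.4 and 19.0 CPM in Wt uninjured MG. Its log2 fold change was -2.52 (edgeR, SE 0.33, adjusted p 0.000111), so that *fosaa* fell where *fosab* did not pass the test.

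Other leucine zipper genes of the Atf, Creb, Cebp and Maf families, which can pair with AP-1 proteins or bind related sites, numbered 27 tested. With injury 8 were higher and 3 lower, or 29.6% and 11.1%, beside 22.3% and 19.8% of all genes. *cremb*, a cAMP response gene, had 4.39, 2.12 and 2.96 CPM in Wt MG at 2 dpi, against 0, 0 and 0.239 CPM in Wt uninjured MG (log2 fold change 5.18, edgeR adjusted p 0.00293). *CEBPB*, a factor of the acute phase response, had 220, 531 and 539 CPM at 2 dpi, against 70.1, 22.5 and 129 CPM without injury (2.54, edgeR adjusted p 0.0045). The stress factors *atf5a* and *atf5b* were higher by 1.69 and 1.42. In uninjured MG *CEBPB* shared with *fosl1a* and *atf3* the order of the 3 libraries, lowest in replicate 2 and highest in replicate 3.

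Of 52 other immediate early and early response genes tested, 11 were higher and 14 lower with injury, with a median of -0.12. These shares of 21.2% and 26.9% are near the 22.3% and 19.8% of all genes. *SOCS3* (ENSDARG00000026611), an inhibitor of Jak and Stat signalling, had 200, 319 and 399 CPM in Wt MG at 2 dpi against 37.7, 12.9 and 50.4 CPM in Wt uninjured MG, a log2 fold change of 3.18. *GADD45B* (ENSDARG00000013576), a stress gene, had 87.4, 172 and 253 CPM at 2 dpi against 10.2, 3.88 and 10.1 CPM without injury (4.40), and *GADD45G* (ENSDARG00000016725) differed by 3.93. The second *GADD45B* gene (ENSDARG00000027744) was not called (-0.04). The edgeR adjusted p of the 3 called genes was 2.75e-05 to 0.000453.

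The lower ones included nuclear receptors of the Nr4a family. *NR4A2* (ENSDARG00000044532), a factor of dopaminergic neurons in mammals, had 3.46, 2.01 and 2.35 CPM in Wt MG at 2 dpi, against 48.1, 13.4 and 11.5 CPM in Wt uninjured MG (log2 fold change -3.22, edgeR adjusted p 0.000584). The following genes were named after their values had been seen. *NPAS4* (ENSDARG00000055752), which in mammals is induced by activity in neurons, had 150, 109 and 137 CPM at 2 dpi, against 1233, 909 and 1108 CPM without injury (-3.04, edgeR adjusted p 1.01e-05).

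*egr4*, a relative of *egr1*, had 83.7, 36.3 and 85.9 CPM in Wt MG at 2 dpi, against 547, 273 and 203 CPM in Wt uninjured MG (log2 fold change -2.31, edgeR adjusted p 0.00151). *NR4A1* was at 17.4 to 22.5 CPM at 2 dpi against 62.7 to 170 CPM without injury (-2.56). Of the other *egr1* relatives, *egr2a* (-0.45), *EGR2* (0.19) and *EGR3* (-0.18) were not called. These falls stand beside those of the neuron markers given above, amacrine and bipolar cell markers included, and the part of neurons in them was not tested.

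**Figure D4:**
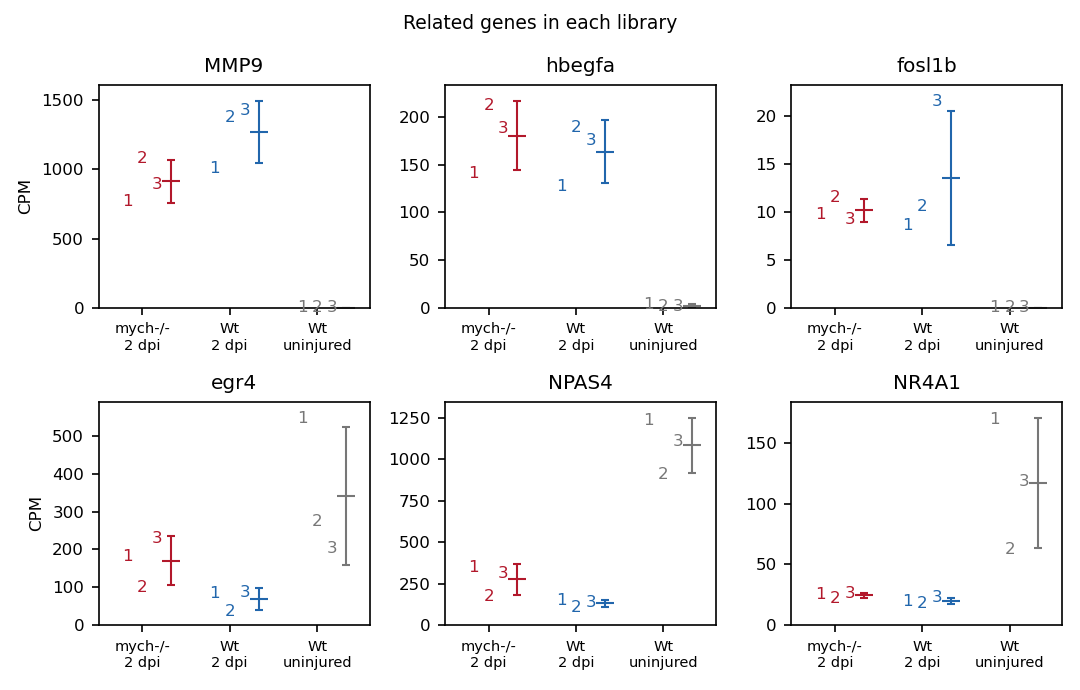
CPM in each library of genes related to AP-1, with linear axes from 0, replicate numbers as digits, and the mean with its SD (n = 3). *MMP9*, *hbegfa* and *fosl1b* are near 0 in Wt uninjured MG and higher in both injured groups, while *egr4*, *NPAS4* and *NR4A1* have their highest mean in Wt uninjured MG. For *egr4* the *mych*-/- and Wt uninjured libraries overlap.

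Genes that act upstream numbered 25 tested. They were MAP kinases, the kinases that activate MAP kinases, and the Srf factors that switch on *fos* and *egr1*. With injury 5 were higher and 6 lower, or 20.0% and 24.0%, again beside 22.3% and 19.8% of all genes. The Jnk kinases, which activate Jun, were divided. *MAPK9* had 20.0, 25.0 and 13.1 CPM in Wt MG at 2 dpi against 9.30, 7.26 and 10.8 CPM in Wt uninjured MG, higher by 1.09 on the log2 scale (edgeR adjusted p 0.00724). *MAPK8* (ENSDARG00000009870) fell by 2.40 on that scale and *MAPK10*, the Jnk of neurons, by 1.80. The second *MAPK8* gene (ENSDARG00000031888) was lower too, with a log2 fold change of -0.87 (edgeR adjusted p 0.0261).

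A last list held 19 tested genes taken here as AP-1 targets, a role that was not tested for any of them. Of these 14 were higher with injury (73.7%, beside 22.3% of all genes) and 0 lower. Their median was 3.92, and 3.82 with genes at the floor set to their bound. The list was chosen with results of these data known, so that its share is a description. *MMP9*, a gelatinase, had 1010, 1373 and 1423 CPM in Wt MG at 2 dpi against 0.794, 0.214 and 1.31 CPM in Wt uninjured MG (log2 fold change 10.64, edgeR adjusted p 3.71e-07).

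*hbegfa*, which encodes an Egf receptor ligand known for its part in MG reprogramming, had 127, 189 and 176 CPM in Wt MG at 2 dpi, against 3.95, 1.07 and 1.36 CPM in Wt uninjured MG (log2 fold change 6.26, edgeR adjusted p 3.29e-06). *il11b*, a cytokine of the Il6 family, had 2.75, 1.13 and 1.52 CPM at 2 dpi and no counts without injury, and so was at least 30.9-fold higher. The collagenase *mmp13b* was scarce and uneven, with 14.4, 2.62 and 0.923 CPM at 2 dpi against 0, 0.309 and 0 CPM without injury. These targets and *fosl1a* were higher in the same libraries, but which AP-1 dimer, if any, drives them was not measured.

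**Figure D5:**
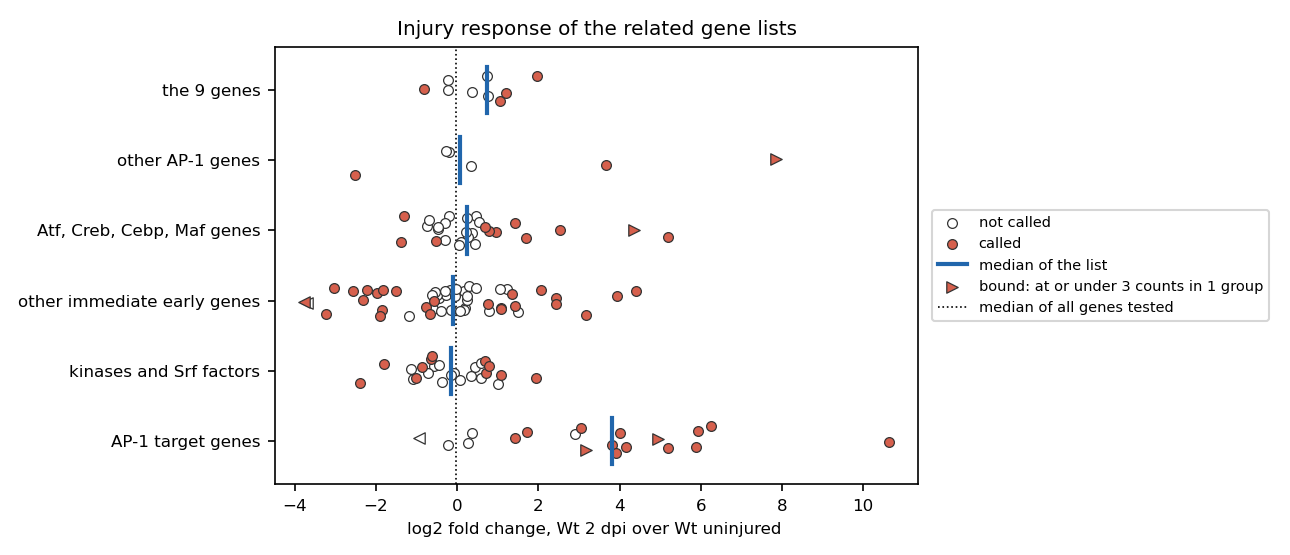
Log2 fold change of Wt 2 dpi over Wt uninjured MG for each gene of the lists, with bars at the list medians and a dotted line at the median of all genes tested (-0.02). Triangles are bounds, for genes that had 3 counts or fewer throughout 1 group. The AP-1 targets stand highest as a list, with a median of 3.82, and the 9 members have a median of 0.73.

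Between genotypes at 2 dpi, 1 of the 129 genes of these 5 lists was called, a share of 0.775% beside 1.69% of all genes. It was *MAPK14* (ENSDARG00000028721), a p38 kinase, with 35.2, 41.9 and 42.1 CPM in *mych*-/- MG against 22.6, 16.0 and 23.5 CPM in Wt MG. Its log2 fold change was 0.94 (edgeR adjusted p 0.0467), with no overlap of the libraries. The count was 0 without Wt uninjured replicate 1 or 3, Wt 2 dpi replicate 2 or 3, or *mych*-/- replicate 1 or 3, and it was 4 without Wt 2 dpi replicate 1 and 3 without *mych*-/- replicate 2. The second p38 gene of this symbol (ENSDARG00000000857) had 53.0, 43.3 and 50.4 CPM in *mych*-/- MG against 66.6, 67.7 and 80.6 CPM in Wt MG, and was not called (-0.55). With injury in Wt MG, ENSDARG00000028721 was called lower (-0.635, edgeR adjusted p 0.027) and ENSDARG00000000857 higher (0.71, edgeR adjusted p 0.0266). In injured *mych*-/- against Wt uninjured MG, ENSDARG00000028721 was higher in every library but not called (0.31, edgeR adjusted p 0.309).

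The libraries of both genotypes overlapped for the other AP-1 genes tested as for the members, *fosaa* excepted. *fosl1b* (log2 fold change -0.42), *batf2* (-0.21) and the Cebp gene *CEBPB* (-1.24) overlapped and were not called. *fosaa* had 6.04, 4.63 and 3.96 CPM in *mych*-/- MG, against 2.38, 2.91 and 2.74 CPM in Wt MG, higher in every library but not called (0.86, edgeR adjusted p 0.169). Of the targets, *MMP9* had 769, 1080 and 889 CPM in *mych*-/- MG against 1010, 1373 and 1423 CPM in Wt MG, with overlap and a log2 fold change of -0.48 (edgeR adjusted p 0.546).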

How the data were processed

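Reads were trimmed, aligned and counted by the authors, whose processing notes name cutadapt 2.3, FastQC 0.11.8, STAR 2.7.8a, RSEM 1.3.3, DESeq2 and the GRCz11 build. The deposited table holds whole-number counts per Ensembl gene for the 9 libraries, with no normalization. Use of strand is not given in the sources used here, so overlapping genes and close copies (the *junb* pair among them) are uncertain. Symbols came from a names table (93.4% of IDs).

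The tests used edgeR 4.0.16 (R 4.3.3), with filterByExpr by group (20484 genes kept), TMM scaling, 1 fit of the 9 libraries with robust dispersion, quasi-likelihood F tests and Benjamini-Hochberg adjustment over all genes. Genes were called at an adjusted p of at most 0.05 and a log2 fold change beyond 0.5. CPM are counts scaled to TMM library sizes, with a prior count of 2 on the log2 scale.

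Members and lists were chosen with earlier results of these data known. Named from each list were up to 4 called genes with the largest change, no overlap of libraries and at least 1 CPM, and, for *fosl1a*, *atf3* and *egr1*, the 3 genes most correlated with each. Floors of 3 counts cover counting error only. Alternatives were other scalings, DESeq2 1.42.0, no filter, the 6 libraries compared, another dispersion, a replicate block, each library left out in turn and other fold thresholds. Same-numbered libraries deviated together in none of 9 pairs (r of -0.08 to 0.09, 0 over 0.1), so replicate numbers were not read as pairs. Promoter motifs were not analysed here. A single gene that this rule names is not reported here. Python 3.11.15 (matplotlib 3.10.9, pandas 2.3.3, scipy 1.17.1) made tables and figures.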

Additional observations from a re-analysis of the deposited data

How the results depend on the processing

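The injury calls of *fosl1a*, *fosl2* and *egr1* held under each other scaling, tool, filter and fit run and with each library left out, though *egr1*, at -0.82, lies inside a log2 fold threshold of 1, that of *atf3* was lost with upper quartile scaling (edgeR adjusted p 0.0548), with no filter (0.0757) and with only the 6 libraries compared (0.0602), and *jun* gained one with library size only (0.0299) and with DESeq2 (0.0258), as *junb*-I did with DESeq2 (0.0384). The count of members called with injury stayed between 3 and 6. In injured *mych*-/- against Wt uninjured MG it was 2 with a log2 fold threshold of 1, and 2 to 4 with each library left out. Without a filter *atf3* was not called there (adjusted p 0.0531), and with library size only *jun* was (0.0399). For the 5 related lists, the count of genes called between genotypes was 3 with no filter, 8 with DESeq2, 0 with a log2 fold threshold of 1, and 0 to 4 with each library left out, beside 1. With the replicate number as a block it was 0, while the block left the members' counts at 4 with injury and 0 between genotypes. The cause of these moves was not tested, other than that a stricter threshold passes fewer genes.

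Between genotypes, the sign of several small differences turned. With library size only they were 0.02 for *fosl1a*, 0.025 for *jun* and 0.028 for *junb*-I, and in injured *mych*-/- against Wt uninjured MG 0.091 for *fosab*. That scaling moved the median of all genes to 0.11 between genotypes and to 0.15 in that comparison with Wt uninjured MG. With each library left out, genotype differences ran from -0.11 to 0.51 for *fosab*, -0.273 to 0.085 for *fosl1a*, -0.22 to 0.23 for *jun*, -0.23 to 0.19 for *junb*-I, -0.341 to 0.023 for *junb*-II and -0.019 to 0.258 for *egr1*. *fosab* ran from -0.34 to 0.18 in injured *mych*-/- against Wt uninjured MG, and *jund* from -0.42 to 0.27 with injury. Each group had 3 libraries, and no member had fewer than 2122 counts in any of them. What limits these values was not tested.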

Other observations

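Within the early response list, a few genes were higher in each *mych*-/- library than in each Wt library at 2 dpi without being called. These were picked after their values had been seen. *NPAS4* (ENSDARG00000055752) had 347, 170 and 309 CPM in *mych*-/- MG against 150, 109 and 137 CPM in Wt MG at 2 dpi (log2 fold change 1.06, edgeR adjusted p 0.0646). *egr4* had 182, 99.8 and 228 CPM in *mych*-/- MG against 83.7, 36.3 and 85.9 CPM in Wt MG (1.31, edgeR adjusted p 0.132). *DUSP6*, a phosphatase that switches off MAP kinases, had 163, 188 and 149 CPM in *mych*-/- MG against 114, 107 and 139 CPM in Wt MG (0.48, edgeR adjusted p 0.165). All 3 were lower in Wt MG at 2 dpi than in Wt uninjured MG. Of the 52 genes of this list, 5 were higher (9.62%) and 3 lower (5.77%) in every *mych*-/- library than in every Wt one, and 4 (7.69%) had an unadjusted p under 0.05. Over all genes these shares were 9.28%, 14.5% and 19.4%, so that the list stood near or below them. The summed amacrine cell markers stood at 1217 to 2448 CPM in *mych*-/- MG beside 739 to 1755 CPM in Wt MG at 2 dpi, with overlap. The summed bipolar cell markers (584 to 728 CPM in *mych*-/- MG beside 351 to 494 CPM in Wt MG) were higher in each *mych*-/- library than in each Wt one, as *NPAS4* and *egr4* were. The summed ganglion cell markers (329.5 to 533.9 CPM beside 261.4 to 325.6 CPM) were barely separated. Both *RBPMS2* genes and *gap43*, the main parts of the ganglion sum, each overlapped between genotypes. Of either list 0 single markers were called. The summed rod (1309 to 2920 CPM in *mych*-/- MG beside 1077 to 3339 CPM in Wt MG), cone and horizontal cell markers overlapped between genotypes. *cabp5a* was the largest part of the bipolar sum. It had 289, 323 and 341 CPM in *mych*-/- MG against 221, 155 and 183 CPM in Wt MG. Of the other bipolar markers some were likewise higher, as *VSX1* was, and some overlapped, as *cabp5b* and *PRKCA* (ENSDARG00000115657) did. The part of neurons in these differences was not tested.

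Among the AP-1 targets, *MMP14* (ENSDARG00000008388), a membrane-bound metalloproteinase, had 69.8, 70.3 and 53.0 CPM in *mych*-/- MG against 92.4, 124 and 117 CPM in Wt MG at 2 dpi, lower in each library (-0.79, edgeR adjusted p 0.071). *CCND1*, the D-type cyclin of the G1 phase, had 308, 359 and 375 CPM in *mych*-/- MG against 535, 587 and 408 CPM in Wt MG (-0.55, edgeR adjusted p 0.164). *TIMP2* (ENSDARG00000075261), an inhibitor of metalloproteinases, went the other way, with 91.0, 59.0 and 75.4 CPM in *mych*-/- MG against 34.0, 37.4 and 31.8 CPM in Wt MG (1.13, edgeR adjusted p 0.0571). None of these was called, and of the 19 targets 2 were higher and 2 lower in every library, a share of 21.1% without overlap beside 23.8% of all genes.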
